A study of Homo sapiens with 9 samples.

Results

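Cytosolic ribosomal protein genes were taken here as the 88 gene symbols of the authors' table that follow the RPL and RPS naming pattern, together with RPSA and without RPS27L, out of 64253 gene identifiers in the count files. The pattern matched 106 identifiers, and for the 4 symbols with several identifiers (RPL41, RPL9, RPS18 and RPS9) the identifier with most counts was used. The 88 symbols hold 77 standard ribosomal proteins (46 of the large and 31 of the small subunit), 7 paralogs (RPL3L, RPL7L1, RPL10L, RPL22L1, RPL26L1, RPL36AL and RPL39L) and 4 retrocopy or pseudogene symbols (RPL12L3, RPL7AL2, RPL7AL3 and RPS10L). RNA was sequenced from IMR90 cells, a line of normal human lung fibroblasts that stops dividing after a limited number of divisions, in 3 groups of 3 libraries named a, b and c. All cells were used at population doubling 30, were grown in 2% oxygen, were infected with pLKO.1 lentivirus 2 times, 24 hours apart, and were selected with 3 ug/mL puromycin for 7 days. The control carried the pLKO.1 vector alone, which the sample labels call empty and the treatment protocol calls GFP. The shRRM2 group carried a hairpin against RRM2, the small subunit of the enzyme that makes deoxyribonucleotides, and is labelled senescent. The shRRM2/shp16 group carried that hairpin and a second one against p16 (gene CDKN2A), an inhibitor of the cell cycle, and its label is senescence bypass. A group with the p16 hairpin alone is not among the samples. The labels do not say whether the 3 libraries of a group came from separate infections, so the p-values measure the spread between these libraries, which may be technical.

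A cytosolic ribosome has a small subunit, which reads the messenger RNA, and a large subunit, which joins the amino acids. Most standard ribosomal proteins are present in about equal number per ribosome, and growing cells devote a large part of their transcription to making ribosomal proteins. Most of these messenger RNAs begin with a C followed by a run of C and T (read as U in RNA), the terminal oligopyrimidine or TOP tract, through which the mTOR pathway controls their translation and, with the protein LARP1, their storage.

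The start sites are shown because this tract is the sequence that the members share beyond their names. Each line below gives the 15 bases before and the first 15 bases of a RefSeq transcript (GRCh38.p14), 5′ to 3′ on the gene's strand, with the pyrimidine run from the start site in capitals. Where RefSeq lists several starts, the one with the longest run was taken. The genes are those with the most different behaviour in the comparisons, and RPL26L1 and RPL7L1 are printed as members without a run.
RPS12, chr6:132814554-132814583, plus strand: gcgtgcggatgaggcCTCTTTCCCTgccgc
RPS27, chr1:153990747-153990776, plus strand: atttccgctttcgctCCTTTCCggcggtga
RPL13A, chr19:49487593-49487622, plus strand: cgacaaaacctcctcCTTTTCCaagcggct
RPL28, chr19:55385917-55385946, plus strand: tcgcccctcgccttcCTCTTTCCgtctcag
RPLP0, chr12:120201097-120201126, minus strand: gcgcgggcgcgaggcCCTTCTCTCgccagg
RPSA, chr3:39406705-39406734, plus strand: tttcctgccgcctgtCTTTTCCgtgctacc
RPL39, chrX:119791616-119791645, minus strand: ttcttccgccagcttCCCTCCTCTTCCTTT
RPL22, chr1:6199581-6199610, minus strand: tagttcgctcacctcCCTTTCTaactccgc
RPL22L1, chr3:170870181-170870210, minus strand: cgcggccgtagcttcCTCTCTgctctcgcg
RPL26L1, chr5:172958714-172958743, plus strand: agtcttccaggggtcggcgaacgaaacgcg
RPL7L1, chr6:42879601-42879630, plus strand: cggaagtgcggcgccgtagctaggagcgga

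A start with C followed by at least 4 further C or T was found in 46 of the 62 standard members that RefSeq's promoter table holds (74.2%), against 5.14% of all 27305 genes in the table. Counted over start sites rather than genes, the shares were 59.7% of 77 starts and 4.07% of 35116 starts, with 1.24 and 1.29 starts per gene. The run was 10 bases long in RPS12, 7 in RPS27 and RPSA, and 19 in RPL39, where it goes on past the printed window. The promoter windows of 300 bases (250 before and 50 after the start) held CGGAAG on either strand, the core of sites for ETS-family factors, in 64.5% of standard members and in 22.6% of all genes. GGGCGG on either strand, the core that Sp1-type factors bind, was held by 58.1% and 48.3%. Such matches describe letters and not occupied sites.

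Of the 88 symbols, 80 passed the low-count filter, 75 of them standard members and 5 paralogs. The 8 that did not pass were RPL3L (3 to 7 reads per library), RPL10L (0 or 1), the 4 retrocopy symbols (0 to 4), RPS9 (1 to 14) and RPS18 (0 reads under all of its 6 identifiers). RPS18 and RPS9 encode standard small subunit proteins, and the identifier of each used here has no position in GENCODE release 29, so their levels are not analysed here. RPL17 had only 95 to 132 reads per library. Its gene (chromosome 18, 49488453 to 49492523, minus strand) lies within a readthrough gene, RPL17-C18orf32, on the same strand, and the authors' deposited table gives it 807 FPKM in shRRM2, among the higher values of the family. RPL17 counts are therefore shown but carry little weight. RPL36A (chromosome X) likewise overlaps RPL36A-HNRNPH2, and 9 members in all overlap another coding gene on their strand, RPL22 and RPL26 among them.

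The libraries held 15770895 to 24873291 gene-assigned counts. RRM2 stood at 481, 491 and 484 CPM (TMM-scaled counts divided by library size, on the usual CPM scale) in the control libraries, 60.0, 63.2 and 63.2 in shRRM2 and 181, 175 and 176 in shRRM2/shp16. The shRRM2/shp16 cells thus kept 36.5% of the control level, against 12.8% in shRRM2, so those groups differed in RRM2 as well as in the second hairpin. CDKN2A, whose gene count also covers the transcript of p14ARF, was at 6.02 ± 0.113 CPM in control, 6.50 ± 0.464 in shRRM2 and 4.28 ± 0.321 in shRRM2/shp16 (SD, n = 3). All 9 fibroblast markers examined were detected, COL1A1 at 12700 ± 162 CPM in control. Of 10 epithelial, endothelial and leukocyte markers, 4 passed the filter, with at most 30 reads in any library, and KRT5, SFTPC and CD3E had none.

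In the shRRM2 libraries, ribosomal protein messages took a smaller part of the RNA than in the control. The 88 genes together held 2.66%, 2.61% and 2.67% of gene-assigned counts in the control libraries, 2.14%, 2.19% and 2.15% in shRRM2, and 2.56%, 2.52% and 2.56% in shRRM2/shp16. The 3 groups did not overlap, and the shRRM2/shp16 libraries lay between the other groups, near the control. Large subunit genes went from 1.69% ± 0.0229 in control to 1.39% ± 0.0163 in shRRM2 and 1.62% ± 0.0173 in shRRM2/shp16 (SD, n = 3). Small subunit genes went from 0.960% ± 0.00956 to 0.773% ± 0.0124 and 0.928% ± 0.00546. These are shares of bulk RNA without a spike-in, so a smaller amount per cell and a larger amount of other RNA cannot be told apart.

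**Figure D1:**
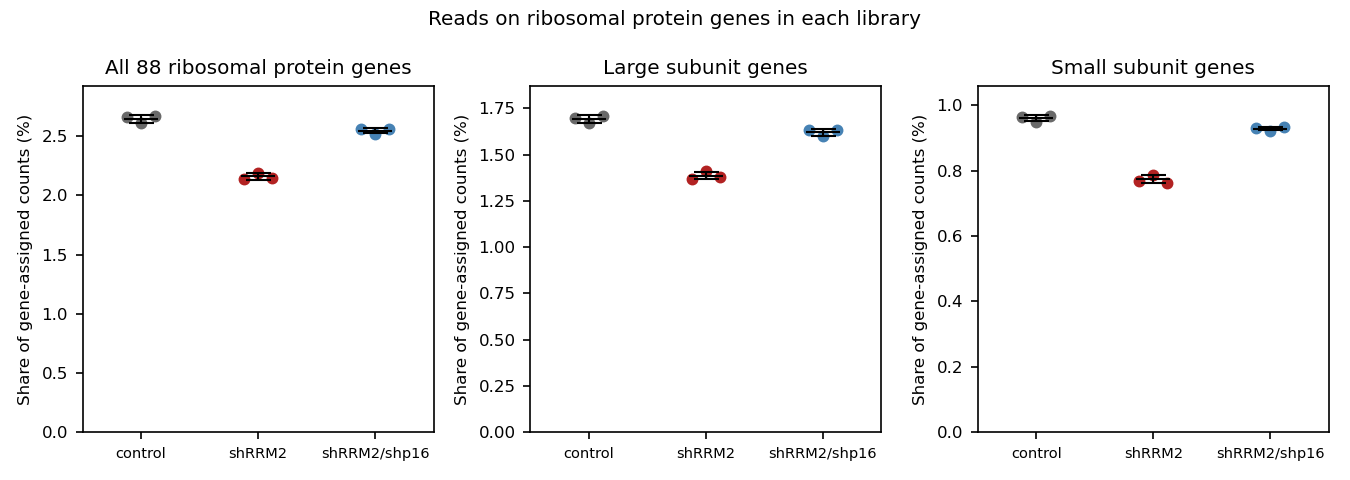
Share of gene-assigned counts (%, vertical axis from 0) on the 88 ribosomal protein genes and on the large and small subunit genes, 1 point per library, with the mean and SD of each group (n = 3). The shRRM2 libraries lie at 2.14% to 2.19%, below all control and shRRM2/shp16 libraries in each panel.

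Other properties of the libraries moved with the groups. Reads that the counting assigned to no feature made up 18.4% ± 0.671 of uniquely aligned reads in control, 28.4% ± 0.650 in shRRM2 and 24.0% ± 0.445 in shRRM2/shp16 (SD, n = 3). Such reads need not lie outside genes. Reads assignable to more than 1 gene made up 5.39% ± 0.542, 4.18% ± 0.505 and 5.32% ± 0.355 in the same order (SD, n = 3). Non-unique alignments were 43.8% ± 0.529, 41.9% ± 1.38 and 44.5% ± 0.552 of all tallied entries, and such alignments were tallied apart from the genes, so members with near-identical copies may be undercounted. The part of these in the results on ribosomal protein genes was not tested. Reads on the 1132 annotated pseudogenes named after standard members came to 0.790 ± 0.0335, 0.898 ± 0.0220 and 0.771 ± 0.00380 per 100 member reads, so reads counted on such copies were few beside those counted on the members.

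Gene by gene, 79 of the 80 tested members fell in shRRM2 against control and 0 rose, by edgeR's quasi-likelihood test at an adjusted p of 0.05. Of all 16561 tested genes, 31.8% were called lower and 29.0% higher in this comparison. The member without a call was RPL17, with its few reads. No member was called higher by DESeq2 or limma either, and 0 were higher at an unadjusted p under 0.05. The median log2 fold change of the members was -0.36, which corresponds to 0.78 of the control level, while that of all tested genes was 0.00. The middle part of the members lay in a narrow band, from -0.43 to -0.27 between the quartiles, and RPL39L alone changed at least 2-fold. Groups did not overlap, with every shRRM2 library below every control library, for 79 members, against 32.9% of all tested genes.

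**Figure D2:**
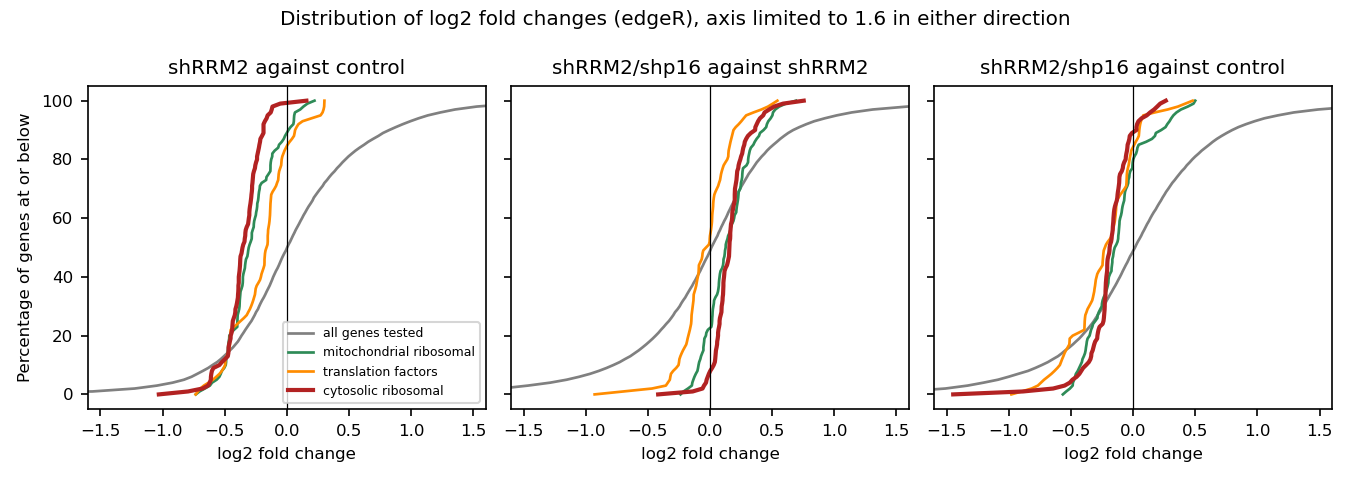
Cumulative distributions of log2 fold changes (horizontal axis, shown from -1.6 to 1.6) for the ribosomal protein genes, mitochondrial ribosomal protein genes, translation factors and all tested genes in each comparison; the vertical axis is the percentage of genes at or below a value. The line of the cytosolic members crosses the 50% level at -0.36, 0.16 and -0.19, and is steeper than that of all genes.

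Among the members that fell most were the stalk protein RPLP0 and the small subunit protein RPSA. RPLP0 (ENSG00000089157, chromosome 12, 120196686 to 120201235, minus strand) is the base of the stalk of the large subunit, on which translation factors dock. It read 652, 628 and 617 CPM in control, 400, 426 and 392 in shRRM2 and 543, 518 and 508 in shRRM2/shp16. The 3 groups were separate, with shRRM2 lowest. The log2 fold change of RPLP0 was -0.64 ± 0.03 (SE) in shRRM2 against control (edgeR adjusted p 2.6e-22). RPLP1 and RPLP2, which bind RPLP0 to complete the stalk, fell as well, by 0.45 ± 0.03 and 0.44 ± 0.04 on the log2 scale (SE; edgeR adjusted p 1.3e-16 and 1.4e-13).

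RPSA (ENSG00000168028, chromosome 3, 39406689 to 39412542, plus strand) is a small subunit protein that is also known as the precursor of a laminin receptor. Its control libraries read 247, 246 and 249 CPM, its shRRM2 libraries 162, 166 and 155, and its shRRM2/shp16 libraries 167, 168 and 164. Both RRM2-depleted groups lay well below the control and overlapped each other. RPSA fell by 0.62 ± 0.03 on the log2 scale (SE; edgeR adjusted p 3.6e-21). RPL35, a large subunit protein at the exit of the peptide tunnel, read 360, 320 and 338 CPM in control, 222, 229 and 219 in shRRM2, and 241, 243 and 231 in shRRM2/shp16. Both RRM2-depleted groups of RPL35 lay below the control, and shRRM2/shp16 lay slightly above shRRM2 without overlap, at 0.09 ± 0.03 (log2, SE; edgeR adjusted p 0.017).

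The smallest changes were those of RPL22, RPL15 and RPL31. RPL15, a core protein of the large subunit, read 482, 495 and 482 CPM in control and 448, 450 and 453 in shRRM2, a log2 fold change of -0.11 ± 0.03 (SE; edgeR adjusted p 0.00035). RPL31 stood at -0.12 ± 0.03 (SE; edgeR adjusted p 0.00044). RPL22, a large subunit protein of the ribosome's outer surface, stood at -0.12 ± 0.04 (SE; edgeR adjusted p 0.00462). The call of RPL22 was lost without control library a (edgeR adjusted p 0.0700), without shRRM2 library a (0.0531) and with libraries scaled by plain totals (0.0671), within a range of 4.7e-05 to 0.0976 over 22 alternative settings. Limma on the authors' RPKM did not call RPL31 lower, at an adjusted p of 0.644 on the values as deposited, 0.657 on those calculated back from the log scale and 0.169 on the 8 columns that match their counts. For RPL15 limma gave an adjusted p of 0.112 on the deposited and 0.233 on the back-calculated values. RPL5 and RPL11, which together with a small ribosomal RNA can bind and inhibit the p53 regulator MDM2, fell by 0.26 ± 0.03 and 0.39 ± 0.03 on the log2 scale (SE; edgeR adjusted p 7.2e-11 and 2.6e-16).

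**Figure D3:**
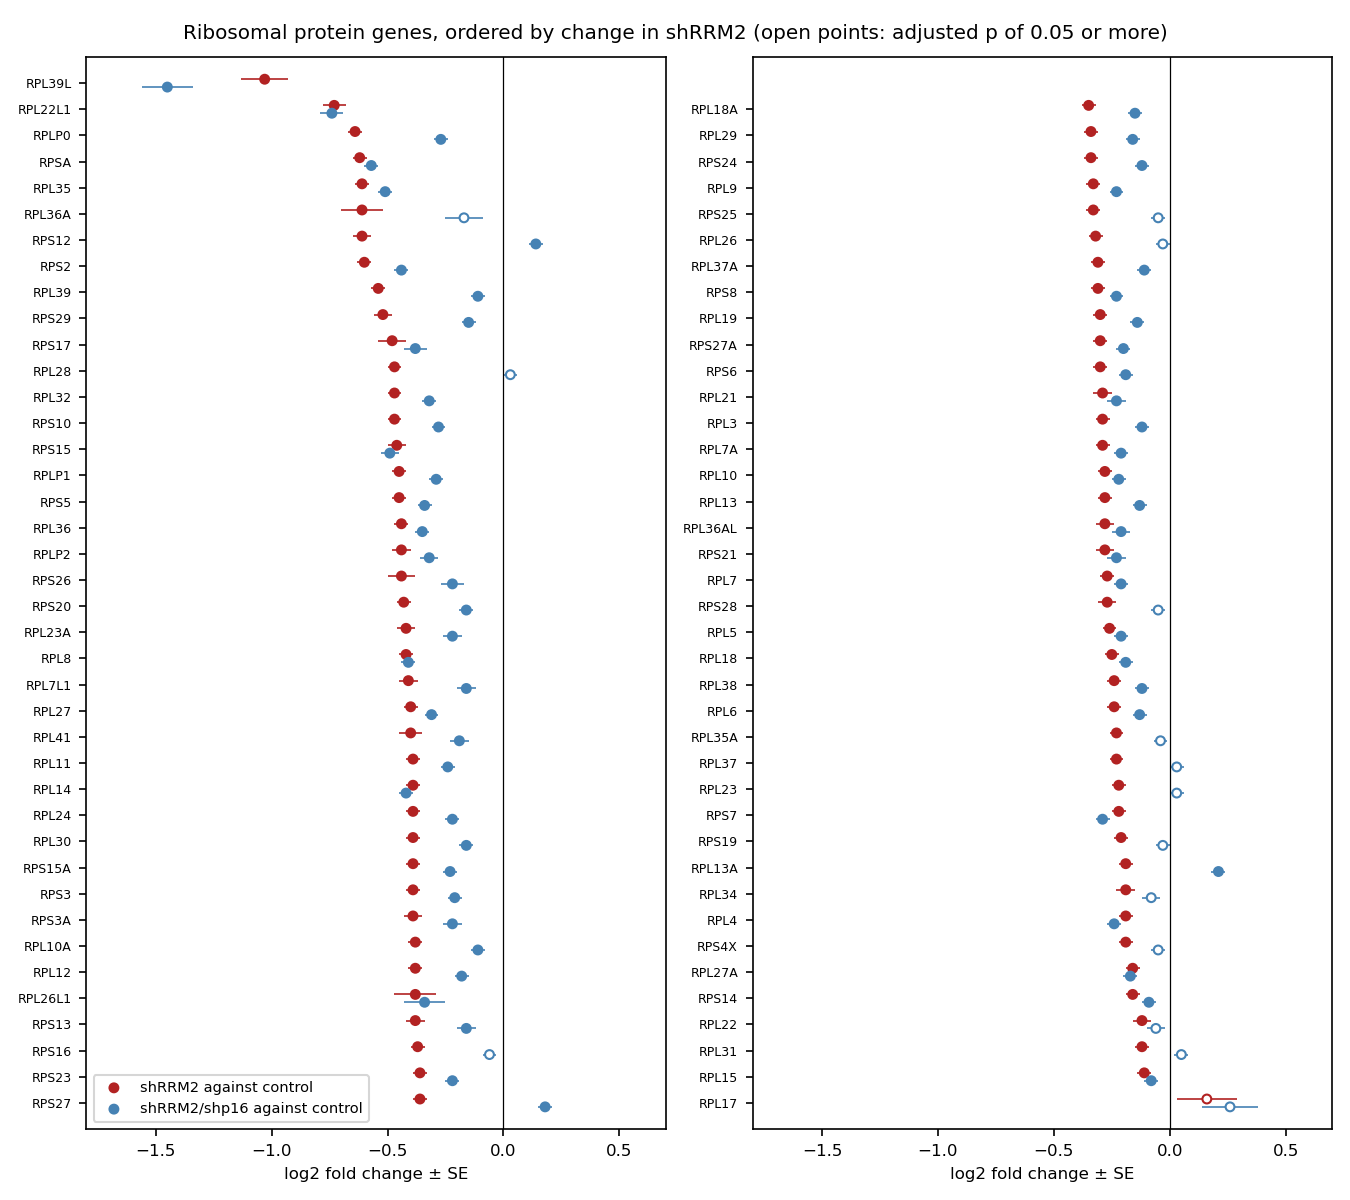
Log2 fold change ± SE (horizontal axis) of 79 of the 80 tested members (vertical axis, from the most to the least lowered in shRRM2) for shRRM2 (red) and shRRM2/shp16 (blue), both against control; open points have an edgeR adjusted p of 0.05 or more. All red points but that of RPL17 lie below 0, and RPS12, RPS27 and RPL13A have filled blue points above 0.

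Adding the p16 hairpin went with higher levels of most members. In shRRM2/shp16 against shRRM2, 59 of the 80 rose, 1 fell (RPL39L) and 20 did not pass the test, while 31.9% of all tested genes were called higher and 29.1% lower. The median log2 fold change was 0.16 for the members and 0.01 for all genes, so the typical rise was smaller than the typical fall in the comparison of shRRM2 with control. The groups did not overlap for 62 members in the higher direction (33.7% of all tested genes) and for 3 in the lower direction (31.1%). This comparison shares its shRRM2 libraries with the one before, so opposite signs in the pair are not independent. In the authors' deposited table, 26 of the 80 members were marked significant in this comparison, 25 higher and 1 lower. As a share, those 26 are near the 28.5% of tested genes that were marked significant in either direction. All 25 members marked higher were also called higher from the counts. The median log2 fold change of all 80 tested members in that table was 0.18.

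RPS12 rose most. RPS12 (ENSG00000112306, chromosome 6, 132814441 to 132817564, plus strand) is a small subunit protein of the beak of that subunit, and its introns carry the small nucleolar RNAs SNORA33, SNORD100 and SNORD101. It read 328, 307 and 340 CPM in control, 211, 227 and 200 in shRRM2, and 368, 355 and 353 in shRRM2/shp16. The shRRM2 libraries were far below the rest, and every shRRM2/shp16 library was above every control library. Its log2 fold change was -0.61 ± 0.04 for shRRM2 over control and 0.75 ± 0.04 for shRRM2/shp16 over shRRM2 (SE; edgeR adjusted p 3.9e-19 and 1.4e-22).

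RPS27 (ENSG00000177954, chromosome 1, 153990755 to 153992155, plus strand), a zinc-binding small subunit protein, showed the next largest rise. Its libraries read 299, 300 and 318 CPM in control, 237, 244 and 233 in shRRM2 and 352, 334 and 355 in shRRM2/shp16, in 3 groups without overlap. The rise over shRRM2 was 0.54 ± 0.03 on the log2 scale (SE; edgeR adjusted p 1.7e-19). RPL28, a large subunit protein, read 615, 571 and 597 CPM in control, 435, 446 and 408 in shRRM2 and 618, 586 and 614 in shRRM2/shp16. The shRRM2/shp16 libraries of RPL28 overlapped the control, and the rise over shRRM2 was 0.50 ± 0.03 (SE; edgeR adjusted p 2.4e-18). RPL36A, with only 9.97 to 17.9 CPM and an overlapping readthrough gene, rose by 0.44 ± 0.09 on the log2 scale (SE; edgeR adjusted p 3.6e-05).

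At the other end were members whose level in shRRM2/shp16 did not pass the test against shRRM2. RPSA stood at 0.05 ± 0.03 (SE; edgeR adjusted p 0.202), and RPL5 at 0.04 ± 0.03 (adjusted p 0.188). With plain library totals both were called higher, RPSA at 0.11 (adjusted p 0.0038) and RPL5 at 0.10 (0.00119). Limma on the 8 columns that match their counts also called both higher, at an adjusted p of 0.0154 for RPSA and 0.0145 for RPL5, as did limma on the deposited RPKM for RPL5 (0.0349). RPS7, a small subunit protein that also can bind MDM2, read 254, 260 and 260 CPM in shRRM2 and 251, 242 and 247 in shRRM2/shp16, a log2 fold change of -0.06 ± 0.03 (SE; edgeR adjusted p 0.0524). The call of RPS7 turned to lower without control library a (adjusted p 0.0378) and without shRRM2 library a (0.0484), and its adjusted p ran from 0.010 to 0.963 over the alternatives. RPL4 and RPL14, both of the large subunit, stood at -0.06 ± 0.03 and -0.03 ± 0.03 (SE; edgeR adjusted p 0.114 and 0.428), and RPL14 was called lower without shRRM2 library a (adjusted p 0.0498). RPL4 was called lower with only the 6 libraries compared (adjusted p 0.0375) and with a replicate block plus the GC content and length correction (0.0343), within 0.034 to 0.955 over the alternatives. The stalk proteins rose, RPLP0 by 0.37 ± 0.03, RPLP1 by 0.16 ± 0.03 and RPLP2 by 0.11 ± 0.04 on the log2 scale (SE; edgeR adjusted p 3.7e-14, 1.8e-05 and 0.00878). The call of RPLP2 was lost without shRRM2 library c (edgeR adjusted p 0.199), with DESeq2 (0.197) and with a correction for GC content and length (0.108), within 0.00011 to 0.199 over the alternatives.

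**Figure D4:**
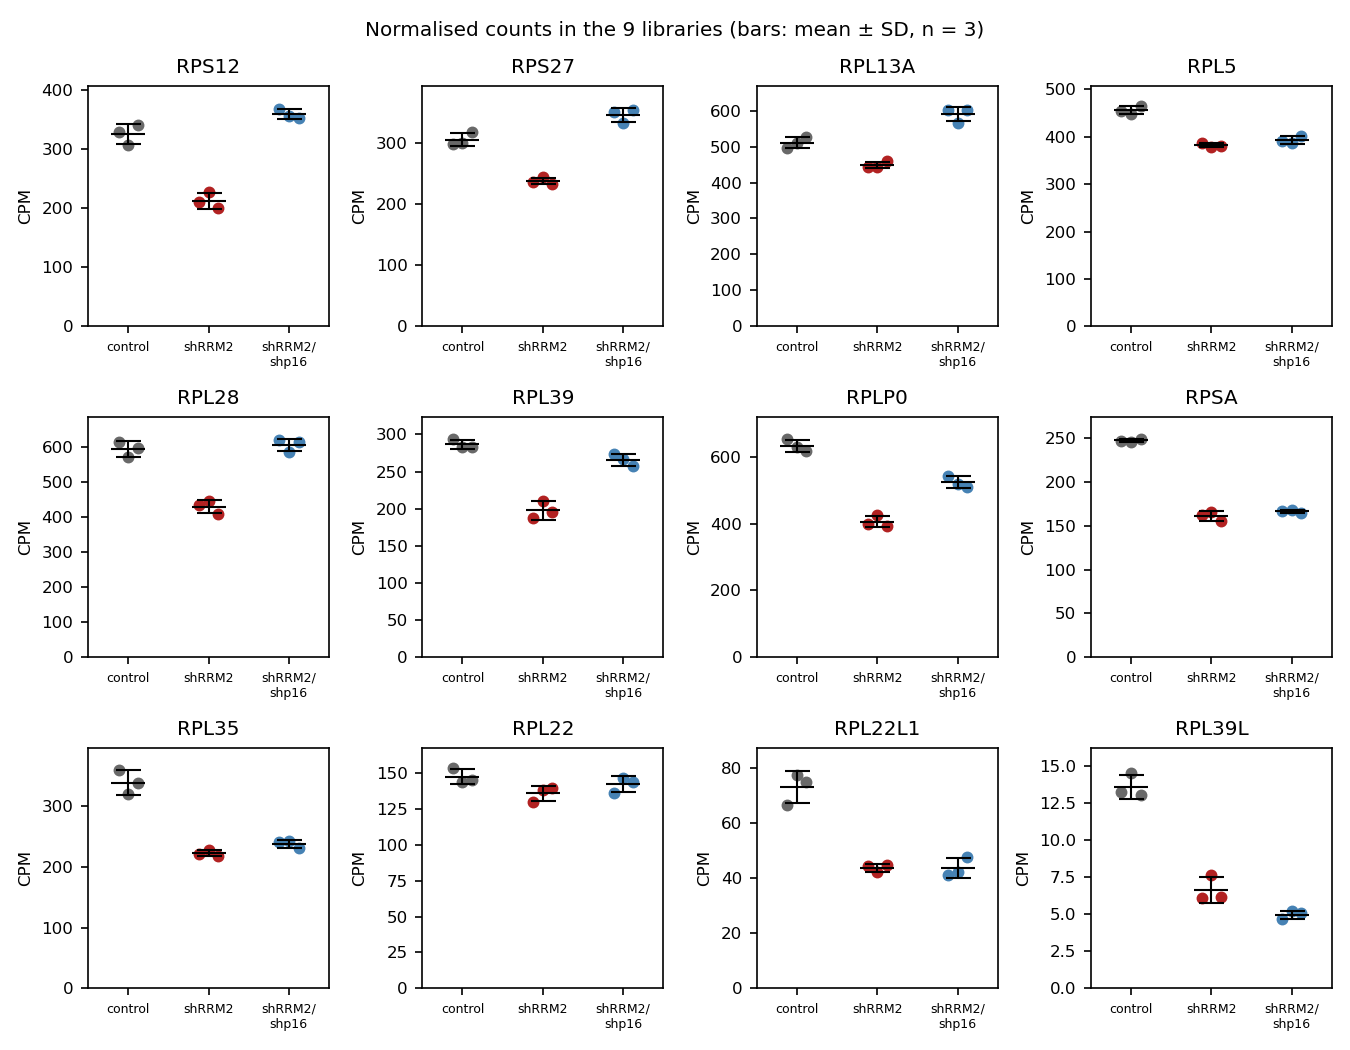
CPM after TMM scaling (vertical axis from 0, own scale in each panel) of 12 members in the 9 libraries, 1 point per library, with mean and SD (n = 3). RPS12, RPS27 and RPL13A are above control in shRRM2/shp16, while RPSA, RPL35, RPL22L1 and RPL39L stay below it.

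Against the control, most members were still lower in shRRM2/shp16. In this comparison 61 of the 80 fell, 4 rose and 15 did not pass the test, while 32.4% of all tested genes were called lower and 30.0% higher. The median log2 fold change was -0.19 for the members and 0.01 for all genes. Groups did not overlap for 64 members in the lower direction (33.8% of all tested genes) and 5 in the higher direction (32.4%). This balance moved with the scaling: with plain library totals, 41 fell and 12 rose and the median was -0.08, while the median of all genes went to 0.12. The shares of all tested genes called with that scaling are not given here, so the 41 and 12 cannot be set against them. Relative to all genes the members therefore remained about as low.

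Among the 4 members that rose were RPS12, RPS27 and RPL13A. RPS12 was 0.14 ± 0.03 above control on the log2 scale (SE; edgeR adjusted p 0.00034), but 0.05 with an adjusted p of 0.173 after a correction for GC content and length (3.5e-08 to 0.173 over the alternatives). RPS27 was 0.18 ± 0.03 above control (SE; edgeR adjusted p 1e-06). RPL13A (ENSG00000142541, chromosome 19, 49487554 to 49492308, plus strand), a large subunit protein that is also known to leave the ribosome and silence certain inflammatory messages, read 497, 511 and 526 CPM in control, 443, 444 and 459 in shRRM2 and 603, 567 and 601 in shRRM2/shp16. All its shRRM2/shp16 libraries were above the control libraries, a log2 fold change of 0.21 ± 0.03 (SE; edgeR adjusted p 2.2e-08). RPL17 was at 0.26 ± 0.12 (SE; edgeR adjusted p 0.0575), and was called higher with plain library totals (0.00837), with only the 6 libraries compared (0.0457) and without control library c (0.0183), among other settings.

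The lowest against control were RPL39L, RPL22L1, RPSA at -0.57 ± 0.03 and RPL35 at -0.51 ± 0.03 (SE; edgeR adjusted p 1.8e-20 and 7.4e-18 for RPSA and RPL35). RPL5 and RPL11 were at -0.21 ± 0.03 and -0.24 ± 0.03, and the stalk members RPLP0, RPLP1 and RPLP2 at -0.27 ± 0.03, -0.29 ± 0.03 and -0.32 ± 0.04 (SE; edgeR adjusted p 4.1e-09, 4e-10, 6e-11, 4.5e-11 and 3.2e-10). RPL28 at 0.03 ± 0.03 and RPL26 at -0.03 ± 0.03 were among the 15 that did not pass (SE; edgeR adjusted p 0.451 and 0.471), and their libraries overlapped between these groups. RPL26 was called higher, at 0.08, with plain library totals (adjusted p 0.0391). RPL3, a core protein of the large subunit, was called lower at -0.12 ± 0.03 (SE; edgeR adjusted p 0.00108), and this call was lost without control library a (0.0656), with DESeq2 (0.0564) and with plain library totals (0.676), within 4.7e-07 to 0.820 over the alternatives.

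All 5 tested paralogs fell in shRRM2 against control, where 31.8% of all tested genes were called lower. With the p16 hairpin added, 1 rose over shRRM2 (RPL7L1), 1 fell (RPL39L) and 3 did not pass the test. Those counts do not exceed the shares of all tested genes (31.9% higher and 29.1% lower). In shRRM2/shp16 against control all 5 were called lower, as were 32.4% of all tested genes. The call of RPL7L1 in that comparison was lost with plain library totals (edgeR adjusted p 0.15). RPL39L (ENSG00000163923, chromosome 3, 187120948 to 187180908, minus strand) is a paralog of RPL39, a small protein that lines the peptide tunnel, and is known for its expression in the male germ line. RPL39L read 13.2, 14.5 and 13.0 CPM in control, 6.09, 7.61 and 6.14 in shRRM2 and 4.65, 5.18 and 5.05 in shRRM2/shp16, in 3 groups without overlap. Its log2 fold changes were -1.03 ± 0.10 for shRRM2 and -1.45 ± 0.11 for shRRM2/shp16, each over control (SE; edgeR adjusted p 8.4e-12 and 4.1e-16). The further fall from shRRM2 to shRRM2/shp16 was 0.42 ± 0.12 on the log2 scale (SE; edgeR adjusted p 0.00341), and was no longer called without shRRM2 library b (-0.30, adjusted p 0.0564, the highest over the alternatives, of which the lowest was 0.0027). RPL39 itself read 294, 283 and 283 CPM in control, 187, 211 and 195 in shRRM2 and 273, 267 and 257 in shRRM2/shp16, so that it rose where RPL39L fell. There were 4.73 ± 0.335 RPL39L reads per 100 RPL39 reads in control, 3.34 ± 0.235 in shRRM2 and 1.87 ± 0.146 in shRRM2/shp16 (SD, n = 3).

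RPL22L1 (ENSG00000163584, chromosome 3, 170864875 to 170870483, minus strand) is the paralog of RPL22, whose protein is known to hold RPL22L1 expression down. RPL22L1 read 66.7, 77.8 and 75.2 CPM in control, 44.5, 42.3 and 44.8 in shRRM2 and 41.4, 42.2 and 47.8 in shRRM2/shp16. Both RRM2-depleted groups lay below the control and overlapped each other, with a log2 fold change of -0.73 ± 0.05 in shRRM2 and -0.74 ± 0.05 in shRRM2/shp16 against control (SE; edgeR adjusted p 1.1e-15 and 2.8e-16). RPL22 read 154, 144 and 145 CPM in control, 130, 138 and 140 in shRRM2 and 136, 147 and 144 in shRRM2/shp16. RPL22L1 reads per 100 RPL22 reads went from 49.7 ± 5.57 in control to 32.3 ± 1.74 in shRRM2 and 30.9 ± 2.29 in shRRM2/shp16 (SD, n = 3). RPL22 overlaps another coding gene on its strand, so it may be undercounted in this ratio.

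RPL7L1, which works in ribosome assembly, was at -0.41 ± 0.04 in shRRM2 against control, then rose by 0.25 ± 0.04 in shRRM2/shp16 against shRRM2 (SE; edgeR adjusted p 9.6e-13 and 3.2e-07). RPL26L1 was at -0.38 ± 0.09 in shRRM2 against control (SE; edgeR adjusted p 0.0003), and at 0.04 ± 0.09 in shRRM2/shp16 against shRRM2 (adjusted p 0.708). RPL36AL fell by 0.28 ± 0.04 on the log2 scale in shRRM2 (SE; edgeR adjusted p 5.6e-07), and by 0.59 after the correction for GC content and length. Its level in shRRM2/shp16 did not pass the test against shRRM2, but was called higher with plain library totals (0.14, adjusted p 0.00761), with the GC content and length correction (0.22, 1.5e-04) and with limma on deposited RPKM (adjusted p 0.0104). Reads per 100 parent reads were 61.8 ± 5.46, 55.8 ± 0.639 and 63.8 ± 4.51 for RPL7L1, and 9.41 ± 0.541, 9.04 ± 1.35 and 7.60 ± 0.601 for RPL26L1, in control, shRRM2 and shRRM2/shp16 (SD, n = 3). The parent RPL26 overlaps another coding gene on its strand and may be undercounted. RPL36AL had 469 ± 13.6, 591 ± 34.0 and 459 ± 41.1 reads per 100 reads counted on RPL36A (SD, n = 3), a ratio that the overlapping readthrough gene of RPL36A makes uncertain. With 3 libraries against 3, an exact two-sided permutation test of such a ratio cannot go below p 0.10. Benjamini-Hochberg adjustment over the 15 tests made turned that value into 0.15 in these data. The test could therefore not reach 0.05 whatever the ratios were. In this permutation test a p of 0.10 says only that the ratios of the 2 groups did not overlap. It was found for RPL39L in all 3 comparisons and for RPL22L1 in the 2 comparisons with control. RPL7L1 and RPL36AL had it in the 2 comparisons with shRRM2, and RPL26L1 in shRRM2/shp16 against control.

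**Figure D5:**
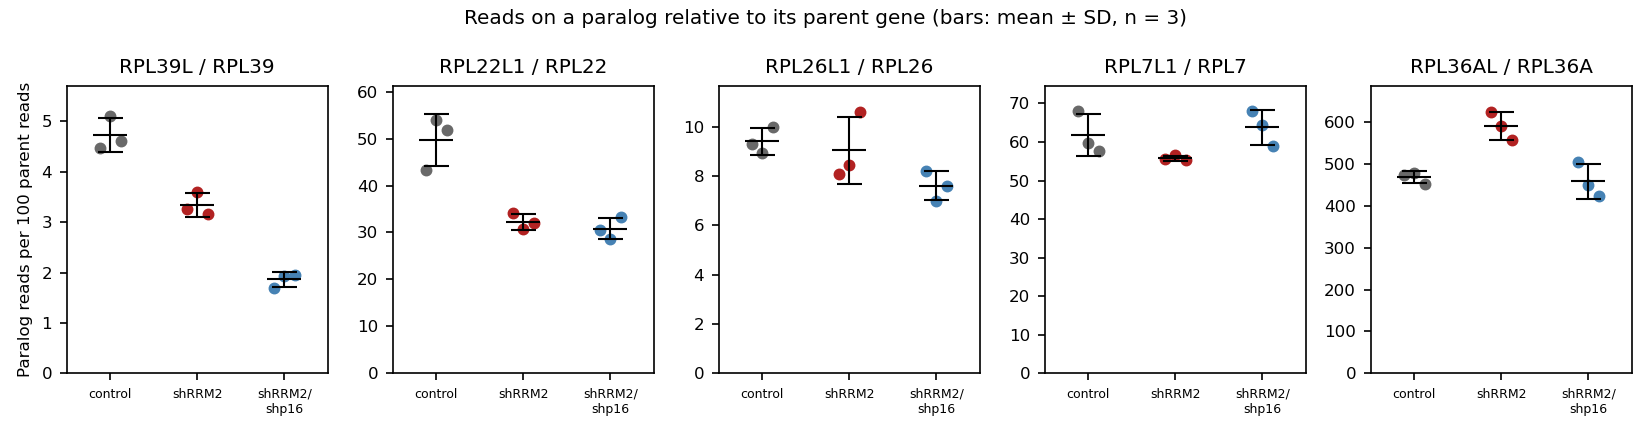
Reads on each of 5 paralogs per 100 reads on its parent gene (vertical axis from 0, own scale in each panel), 1 point per library, with mean and SD of each group (n = 3). The ratio of RPL39L to RPL39 falls over the 3 groups without overlap, and that of RPL22L1 to RPL22 is lower in both RRM2-depleted groups than in control.

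Within the standard set, subunit, snoRNA content, start tract and pseudogene number went with small differences between medians. The median log2 fold changes (shRRM2 over control, shRRM2/shp16 over shRRM2, shRRM2/shp16 over control) were -0.32, 0.16 and -0.17 for the 46 tested large subunit members and -0.37, 0.16 and -0.20 for the 29 small subunit members. For the 28 members with a small nucleolar RNA in an intron they were -0.33, 0.17 and -0.17, and for the 47 tested members without one -0.34, 0.16 and -0.19. The 44 tested members with a pyrimidine run at a start had medians of -0.35, 0.17 and -0.17, and the 16 with a RefSeq start but no run -0.29, 0.12 and -0.15. Across the 75 genes, which share their libraries and are not independent, Spearman's rho of the change in shRRM2 was 0.06 with the number of pseudogenes, -0.16 with GC content, 0.28 with exon length and 0.16 with the control level. These are descriptions without a test.

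Levels between genes were compared per kilobase of merged exon length, which counts every annotated exon and so lowers the value of genes with long rare transcripts. On that scale the higher levels in control included RPS12 at 424 ± 21.4 CPM per kb (SD, n = 3), followed by RPL19 at 330 ± 9.47, RPL8 at 309 ± 10.9, RPS27 at 295 ± 10.6 and RPS2 at 292 ± 4.55. The neighbours RPS27 and RPS2 did not differ beyond their spread. In shRRM2 the levels of RPS12 and RPL19 came close, 277 ± 17.4 and 268 ± 10.6 CPM per kb, while in shRRM2/shp16 RPS12 was again well above RPL19, at 468 ± 11.2 and 299 ± 5.41 (SD, n = 3). Among the tested members the lowest on these counts were RPL17 and RPL36A, both of which overlap a readthrough gene. The authors' deposited values in shRRM2 are 807 FPKM for RPL17 and 538 for RPL36A, against 11.1 for RPL39L. The ranks of RPL17 and RPL36A therefore carry little weight. RPL39L came next, at 12.8 ± 0.751 CPM per kb in control, 6.24 ± 0.816 in shRRM2 and 4.68 ± 0.261 in shRRM2/shp16 (SD, n = 3). In the authors' deposited table, which allows for transcript length, RPL37A had the highest value in shRRM2, 2230 FPKM, and RPS29 was listed at 0 although its count was 2230 to 4521 reads per library.

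Other genes of the translation machinery were read from lists written by function. FAU, a fusion of a ubiquitin-like protein to a ribosomal protein, and the small subunit scaffold RACK1 fell in shRRM2 against control, by 0.27 ± 0.03 and 0.20 ± 0.03 on the log2 scale (SE; edgeR adjusted p 9.4e-09 and 3.3e-09). Neither passed the test in shRRM2/shp16 against shRRM2, at 0.07 ± 0.04 and 0.01 ± 0.03 (SE; edgeR adjusted p 0.106 and 0.796), and against control both were lower, at -0.20 ± 0.03 each (SE; edgeR adjusted p 1.9e-06 and 6.1e-09). With plain library totals both were called higher than in shRRM2, FAU at 0.13 (adjusted p 0.00173) and RACK1 at 0.07 (0.0137), and limma on the 8 columns that match their counts called them too (0.0312 and 0.0348). FAU was also called higher without shRRM2 library b (edgeR adjusted p 0.0493) and by limma on RPKM as deposited (0.0336) and calculated back (0.047). Its lower call against control was lost with limma on back-calculated RPKM (adjusted p 0.0616).

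Mitochondrial ribosomal protein genes, which encode the separate ribosome of mitochondria, were read from the 77 symbols of that family. Of 75 tested, 58 fell and 1 rose (MRPS6) in shRRM2 against control, with a median of -0.31, 32 rose and 4 fell in shRRM2/shp16 against shRRM2 (median 0.13), and 38 fell and 5 rose in shRRM2/shp16 against control (median -0.15). Of all tested genes, 31.8% were called lower and 29.0% higher in the first comparison, 31.9% higher and 29.1% lower in the second, and 32.4% lower and 30.0% higher in the third. MRPL39 stood at -0.69 ± 0.08 in shRRM2 against control, and MRPL34 at 0.69 ± 0.07 in shRRM2/shp16 against shRRM2 (SE; edgeR adjusted p 2.2e-10 and 1.2e-11). The cytosolic members had a larger share called in the first pair of comparisons, 79 of 80 and 59 of 80, but the lists differ in expression level and the difference between them was not tested.

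Translation factors recruit ribosomes to messages and drive elongation and release. Of the 42 tested in shRRM2 against control, 30 fell and 4 rose (median -0.16). Between shRRM2/shp16 and shRRM2, 19 fell and 9 rose (median -0.03), and in shRRM2/shp16 against control 28 fell and 4 rose (median -0.23). The shares called lower among all tested genes were 31.8%, 29.1% and 32.4% in these 3 comparisons, and those called higher 29.0%, 31.9% and 30.0%. EIF4EBP1, an inhibitor of the cap-binding protein EIF4E, fell by 0.73 ± 0.05 on the log2 scale in shRRM2 against control, and EIF5, which acts in start codon selection, by 0.69 ± 0.03 (SE; edgeR adjusted p 5.2e-16 and 1.9e-22). EIF4EBP2, a related inhibitor, read 298 ± 3.63 CPM in shRRM2 and 157 ± 2.30 in shRRM2/shp16 (SD, n = 3), a log2 fold change of -0.93 ± 0.03 (SE; edgeR adjusted p 1.6e-28). EIF5B and EIF4G3 were the most raised in shRRM2, each by 0.30 on the log2 scale.

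Of 16 further genes with TOP messages, 3 also encode ribosome proteins, FAU and RACK1 among them, and 7 are translation factors. In shRRM2 against control 11 of the 16 fell and 0 rose (median -0.16; 0 at an unadjusted p under 0.05, 1 by DESeq2 and 0 by limma). In shRRM2/shp16 against shRRM2 6 rose and 4 fell (median 0.05), and against control 11 fell and 3 rose (median -0.14). The 6 that rose and 4 that fell are shares near those of all tested genes (31.9% higher and 29.1% lower), whereas 31.8% of all genes were lower in shRRM2 and 32.4% in shRRM2/shp16, each against control. HNRNPA1, an RNA-binding splicing regulator, had the largest fall, from 524 ± 10.3 CPM in control to 276 ± 5.77 in shRRM2, with 354 ± 6.18 in shRRM2/shp16 (SD, n = 3). NPM1, a nucleolar protein of ribosome assembly, fell by 0.47 ± 0.03 on the log2 scale in shRRM2 against control, and was at -0.04 ± 0.03 in shRRM2/shp16 against shRRM2 (SE; edgeR adjusted p 7.4e-19 and 0.263). TPT1 and EEF2 had no call in shRRM2 against control, at -0.04 ± 0.02 and 0.01 ± 0.03 (SE; edgeR adjusted p 0.194 and 0.751).

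A list of 12 genes held chaperones, carriers and binding partners of ribosomal proteins, together with the TOP-binding protein LARP1. Of these 12, 8 fell and 2 rose in shRRM2 against control (median -0.23). In shRRM2/shp16, 4 rose and 3 fell against shRRM2 (median 0.12), and 5 fell and 2 rose against control (median -0.07). The 4 and 3 called in the second comparison are shares near those of all tested genes (31.9% higher and 29.1% lower), while among all genes 31.8% were lower in the first comparison and 32.4% in the third. HEATR3, which carries RPL5 into the nucleus, and GRWD1, a chaperone of RPL3, fell by 0.68 ± 0.08 and 0.65 ± 0.05 on the log2 scale in shRRM2 (SE; edgeR adjusted p 1.9e-10 and 2.6e-14), and neither passed the test in shRRM2/shp16 against shRRM2, at 0.03 ± 0.08 and 0.06 ± 0.06 (adjusted p 0.776 and 0.370). PDCD2, a chaperone of RPS2, read 40.0 ± 1.88 CPM in control, 31.1 ± 0.210 in shRRM2 and 41.6 ± 1.86 in shRRM2/shp16 (SD, n = 3), a fall and a rise that both passed the test. MDM2, the partner of RPL5 and RPL11, and NMD3, the export adaptor of the large subunit, rose in shRRM2 by 0.80 ± 0.03 and 0.37 ± 0.04 on the log2 scale (SE; edgeR adjusted p 3.4e-24 and 2.2e-09).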

How the data were processed

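RNA of 9 IMR90 libraries was depleted of ribosomal RNA, made into stranded libraries and sequenced, per the labels' protocols. The authors deposited raw read counts per Ensembl gene, in the layout of HTSeq. They also deposited a table of log2 RPKM per library and, for shRRM2/shp16 against shRRM2, FPKM, log2 fold change, a test statistic (a score), p-value and q-value, per the file headers. TopHat2 2.0.9, Cufflinks 2.0.2, Cuffdiff and GRCh38 are named in the submitters' processing notes, and the strand setting of the counting is not given in the sources used here, so reads over antisense genes may be assigned to either. The log2 RPKM column of shRRM2 library c matched its counts (within 1%, genes with at least 100 counts) for 5.49% of genes, against 100% in the other 8. Tally lines naming no gene were left out of library sizes, and 0 columns of per-sample values were unmapped.

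Counts were tested with edgeR 4.0.16 (R 4.3.3): filterByExpr kept 16561 of 64253 genes with 99.8% of counts, TMM scaling, glmQLFit over all 9 libraries and glmQLFTest, two-sided, Benjamini-Hochberg adjustment over all tested genes, threshold 0.05. The biological coefficient of variation was 0.027. Counting error alone understates the error, since reads carry no molecular identifiers. The members and lists were chosen with earlier results of these data known. Named were the paralogs with their parents, the stalk genes, RPL5, RPL11, RPSA, the 4 highest and 4 lowest members of each comparison, FAU, RACK1 and the 2 highest and 2 lowest called genes of each other list, of which the text gives a selection. Results on 1 tested member and a few other genes are not reported here. On simulated data for shRRM2 against control (16154 genes), 27 of 50 genes changed 1.25-fold, 39 of 48 changed 1.5-fold and 46 of 49 changed 2-fold were recovered, with 9 false calls. The changed genes were few and drawn at random from all levels, whereas 60.9% of tested genes were called in the data. These recovered shares therefore need not hold for the members. Alternatives were other scalings and filters, DESeq2 1.42.0, limma 3.58.1 on RPKM, the replicate letter as a block, correcting for GC content and length (known for 98.3% of tested genes) and leaving out each library. Positions are from GENCODE release 29 (GRCh38), and start sequences are from RefSeq (GRCh38.p14), which held 67 of the 88 symbols.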

Additional observations from a re-analysis of the deposited data

How the results depend on the processing

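Fewer members were called lower in shRRM2/shp16 against control with limma on RPKM or plain library totals than with edgeR on counts; in shRRM2 against control, 74 to 79 members were lower under all settings run. The median of the members in shRRM2 against control was -0.31 with plain library totals, -0.40 without a low-count filter and -0.33 with at least 10 counts in every sample. It was -0.021 on the authors' log2 RPKM as deposited. Settings chosen after seeing the data gave -0.26 on RPKM calculated back and rescaled by a common factor (log2, pseudocount 1), and -0.30 on the 8 columns that match their counts. Fold changes on the deposited values are on a smaller scale and cannot be compared in size with the others. RPL22 in shRRM2 against control, for example, was at -0.002 as deposited and -0.09 calculated back. In shRRM2/shp16 against shRRM2 the median of the members was 0.22, 0.013, 0.18 and 0.21 with plain totals, deposited RPKM, back-calculated RPKM and 8 columns, and in shRRM2/shp16 against control -0.08, -0.006, -0.08 and -0.08. In the latter 12, 8, 8 and 10 members were called higher with these settings, and 34, 30 and 36 lower with the last 3. In shRRM2/shp16 against shRRM2, 2 members were lower with RLE size factors, with at least 10 counts in every sample and with DESeq2, 3 with only the 6 samples compared and with GC content and length correction, and 4 with that correction and the replicate block; leaving out a library gave 0 to 3, and a median against control of -0.21 to -0.16. Without mitochondrial genome genes the shares of counts were 2.70%, 2.20% and 2.59%. The cause of the shifts other than that scale was not tested. Shares of all tested genes called under the alternative settings are not given, so the counts of calls here and below describe the members alone.

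Signs turned for values near 0. In shRRM2/shp16 against shRRM2, RACK1 was at -0.002 with RLE and DESeq2 and -0.001 with at least 10 counts; RPL22L1 at 0.06 with plain totals, 0.014 without a filter and 0.07 on 8 columns; RPL4 at 0.004 and 0.009, and RPL14 at 0.028 and 0.06, with plain totals and on 8 columns; RPS7 at 0.001 and 0.017 on deposited and back-calculated RPKM. Leaving out a library gave RPL22L1 -0.07 to 0.034, RPL26L1 -0.024 to 0.15 and RACK1 -0.009 to 0.02. In shRRM2/shp16 against control, RPL22 was at 0.046 and RPL26 at 0.08 with plain totals, 0.001 and 0.005 on deposited RPKM, and 0.046 and 0.07 on back-calculated RPKM with 9 or 8 columns. RPL17 in shRRM2 against control was at -0.001 on back-calculated RPKM.

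Libraries of the same letter did not deviate together (correlations of -0.02 to 0.049), so letters were not taken as pairs. With the replicate block, 79 members were lower in shRRM2 against control, 60 were higher and 1 lower in shRRM2/shp16 against shRRM2, and 4 were higher and 63 lower against control. RPL17, RPL39L, RPL26L1 and RPL36A, with the fewest reads among the members tested, have the largest errors of the members.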
